A study of Mus musculus with 8 samples.

Results

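Purinergic receptors are the cell-surface proteins through which cells sense nucleotides outside the cell. The 10 receptor genes described here are 7 of the P2Y class (P2ry1, P2ry2, P2ry6, P2ry10, P2ry12, P2ry13 and P2ry14) and 3 of the P2X class (P2rx1, P2rx4 and P2rx7). They were taken by gene name, and all 10 were among the 24011 named genes measured. P2Y receptors are G protein-coupled receptors, whereas P2X receptors are cation channels that open when they bind ATP. Cells release ATP, ADP, UTP, UDP and UDP-sugars when they are stressed or damaged, and enzymes on the cell surface break these down to nucleosides such as adenosine. In bone marrow, such signals are known to act on platelets, phagocytes and lymphocytes, and the UDP-glucose receptor P2ry14 has been studied in haematopoietic stem and progenitor cells.

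Expression was measured in bone marrow of adult C57Bl6 mice in 2 sorted populations, with no treatment or engineered allele named in the labels. Lin+ cells are the mixture of marrow cells bearing lineage antigens, and 4 arrays hold them. HSC-enriched cells, a gate in which haematopoietic stem cells (HSCs) are frequent, were measured on 4 others. Their gate is LSK (no lineage antigens, but Sca-1 and Kit) with CD105 and without CD48 in the labels, whereas the series' design text has CD150 where the labels have CD105. The labels do not tie replicates to different mice. The p-values therefore describe the scatter of these arrays, part or all of which may be technical, and the small number of arrays limits how precise any difference can be.

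Values are log2 levels per gene, with array medians of 5.22 to 5.33. Across genes, which are not independent replicates, arrays of a group correlated at 0.978 to 0.987. The measured gate genes ran with the sort. Kit, Eng (CD105) and Slamf1 (CD150) were 9.19-, 7.78- and 3.47-fold higher and Cd48 was 12.9-fold lower in HSC-enriched cells, all past the test, while Ly6a, which encodes Sca-1, was not analysed here. All 8 HSC marker genes were higher. HSC-enriched replicates 3 and 4 stood apart in neutrophil markers, whose mean level was 9.36 and 9.19 there against 6.70 and 6.58 on replicates 1 and 2 and 11.64 to 11.85 on Lin+ arrays. B cell markers averaged 6.53 on HSC-enriched replicate 3 and 4.81 to 5.03 on the other arrays of that group. As a guide to background, the 1065 olfactory receptor genes had a 95th percentile of 5.08, and the HSC-enriched mean of Cd48 (4.96) lay under it.

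Of the 10 receptor genes, 5 fell in HSC-enriched cells (P2ry6, P2ry10, P2ry12, P2ry13 and P2rx7), 1 rose (P2rx1), and 4 did not pass (P2ry14, P2ry1, P2ry2 and P2rx4). The test was limma's moderated test at a Benjamini-Hochberg adjusted p under 0.05 over all genes. Over all genes tested, 12.4% were called lower, 15.5% higher and 27.8% either way, so the single riser is no more than the background share. The median difference of the 10 genes (HSC-enriched minus Lin+, log2) was -0.67, against 0.02 over all genes. The groups did not overlap for 6 of the 10, against 28.9% of all genes. In sorted populations such as these, fewer cells of a type and less RNA per cell cannot be told apart.

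**Figure D1:**
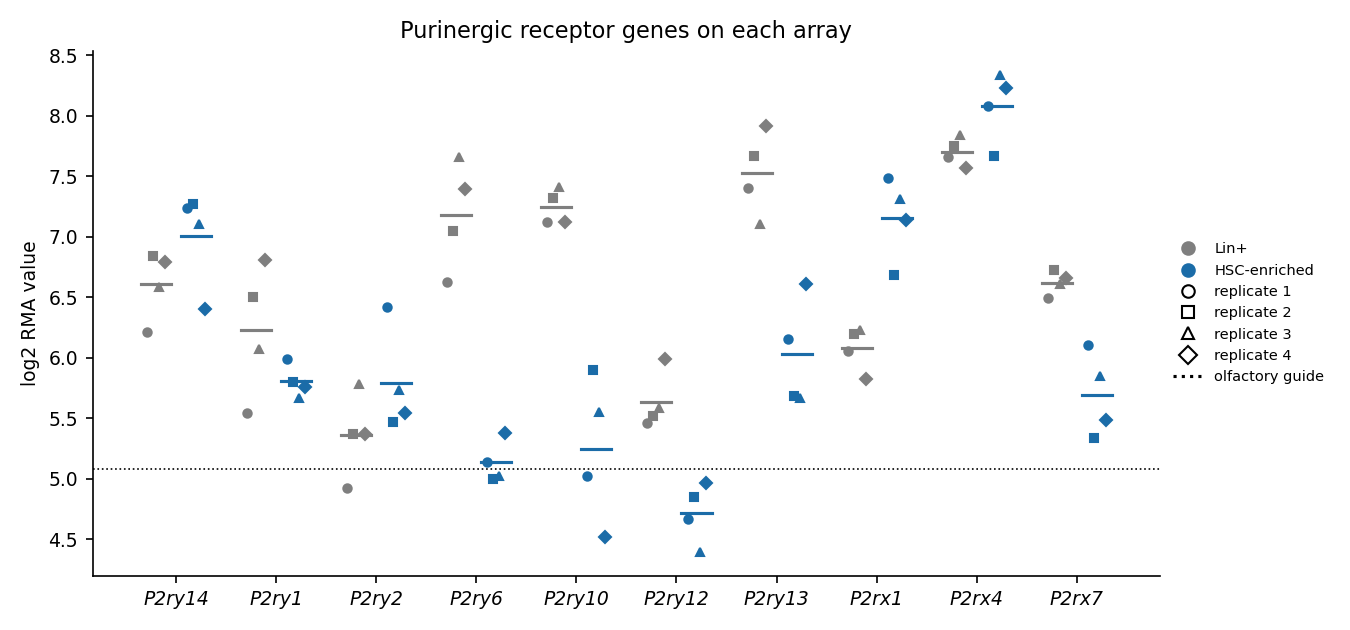
Log2 values of the 10 receptor genes on each of the 8 arrays (grey, Lin+; blue, HSC-enriched; symbols, replicates 1 to 4; bars, group means; dotted line, the olfactory guide at 5.08). Values of different genes are not comparable with each other. P2ry6, P2ry10, P2ry12, P2ry13 and P2rx7 have all HSC-enriched arrays below the Lin+ arrays, and P2rx1 has them above.

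P2ry14 (Entrez gene 140795), the receptor for UDP-glucose and UDP, did not pass the test. It stood at 6.21, 6.84, 6.59 and 6.79 on Lin+ replicates 1 to 4 and at 7.24, 7.27, 7.11 and 6.40 on HSC-enriched replicates 1 to 4. HSC-enriched replicates 1 to 3 lay above every Lin+ array, and replicate 4 lay below 3 of them. The means were 7.0 ± 0.41 against 6.61 ± 0.29 (log2, SD, n = 4), a difference of 0.40 ± 0.21 (SE) with a 95% interval of -0.07 to 0.86 (limma adjusted p = 0.22). The upper end of that interval is below a 2-fold rise, which is 1 on the log2 scale. Without HSC-enriched replicate 4 the difference was 0.60 and passed (adjusted p = 0.022), as it did without replicates 3 and 4 together (0.65, adjusted p = 0.040). In the 15 other alternatives it did not pass (adjusted p up to 0.432). All 8 values were above the olfactory guide.

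The genes whose values over the 8 arrays ran most like those of P2ry14 were Nae1 (a subunit of the NEDD8-activating enzyme, r = 0.986), Cnih1 (a cargo receptor of the endoplasmic reticulum, r = 0.974), Uprt (named for uracil phosphoribosyltransferase, r = 0.974), Rpp30 (an RNase P subunit, r = 0.969) and Mrps17 (a mitochondrial ribosomal protein, r = 0.968). These are Pearson correlations chosen as the highest of all named genes over 8 arrays, given as a description. Having been chosen for this likeness, all 5 share the profile of P2ry14. Each was lower on HSC-enriched replicate 4 than on the other 3 arrays of that group, and lowest on replicate 1 among the Lin+ arrays. None of the 5 passed between the groups, with differences of 0.17 (Rpp30) to 0.42 (Mrps17). Without HSC-enriched replicate 4, Nae1 (0.42, adjusted p = 0.037), Cnih1 (0.38, adjusted p = 0.033), Uprt (0.62, adjusted p = 0.046) and Mrps17 (0.59, adjusted p = 0.015) passed. These calls also follow from the choice of genes and are no separate result.

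The ADP receptors coupled to Gi proteins, P2ry12 and P2ry13, both fell. P2ry13 (74191) stood at 7.40, 7.66, 7.11 and 7.91 on Lin+ replicates 1 to 4 and at 6.15, 5.68, 5.67 and 6.61 on HSC-enriched replicates 1 to 4. It was 2.82-fold lower (difference -1.49 ± 0.23, SE; limma adjusted p = 0.00073), with no overlap and all arrays above the guide. P2ry12 (70839), the platelet receptor that clopidogrel-type drugs block, stood at 5.46, 5.52, 5.58 and 5.99 on Lin+ arrays and at 4.67, 4.85, 4.40 and 4.97 on HSC-enriched arrays. Its difference was -0.92 ± 0.16 (adjusted p = 0.0014), again without overlap. All HSC-enriched values of P2ry12 lay under the olfactory guide, so its 1.89-fold difference rests on a level near background. Both genes were highest on replicate 4 within each group.

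P2ry1 (18441), the ADP receptor coupled to Gq, did not pass. Its Lin+ values were spread widely, at 5.55, 6.50, 6.07 and 6.81 on replicates 1 to 4, whereas HSC-enriched arrays lay close together at 5.99, 5.80, 5.67 and 5.76. The difference was -0.43 ± 0.23 with a 95% interval of -0.95 to 0.10 (limma adjusted p = 0.236). Lin+ replicate 1 lay below all HSC-enriched arrays. Without it the difference was -0.65 and passed (adjusted p = 0.021).

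P2ry6 (233571), the receptor for UDP, fell by about as much as P2ry10, described next. It stood at 6.63, 7.05, 7.66 and 7.39 on Lin+ replicates 1 to 4 and at 5.14, 5.00, 5.02 and 5.38 on HSC-enriched replicates 1 to 4. The groups were far apart, and the HSC-enriched arrays lay at the olfactory guide, with 2 of 4 above it. The gene was 4.13-fold lower (difference -2.04 ± 0.20, limma adjusted p = 3.3e-05). P2ry2 (18442), the receptor for ATP and UTP, was at 4.92, 5.37, 5.79 and 5.37 on Lin+ and at 6.42, 5.47, 5.74 and 5.54 on HSC-enriched arrays. These overlapped, and the difference of 0.43 ± 0.23 (95% interval -0.09 to 0.94, adjusted p = 0.228) did not pass in any of the 17 alternatives.

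P2ry10 (78826) is placed in the family by sequence but is known as a receptor for lysophosphatidylserine, a lipid, in lymphocytes. It was at 7.12, 7.32, 7.41 and 7.12 on Lin+ replicates 1 to 4 and at 5.02, 5.90, 5.55 and 4.52 on HSC-enriched replicates 1 to 4. The Lin+ arrays lay within 0.3 of each other, while the SD of the HSC-enriched arrays was 0.60 and 2 of them were under the guide. The fall was 3.99-fold (difference -2.0 ± 0.25, limma adjusted p = 0.00019). Its neighbour and close copy on the X chromosome, P2ry10b, fell 2.47-fold, from 6.05 ± 0.34 to 4.75 ± 0.09 (adjusted p = 0.00015), where all 4 HSC-enriched arrays lay under the guide. The sources used here do not state how probes shared by such copies were assigned, so the split between them is uncertain.

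Among the ATP-gated channels, P2rx1 (18436), known from platelets, neutrophils and smooth muscle, was the gene that rose. It was at 6.06, 6.20, 6.23 and 5.82 on Lin+ replicates 1 to 4 and at 7.48, 6.68, 7.31 and 7.14 on HSC-enriched replicates 1 to 4. Every HSC-enriched array exceeded every Lin+ array, for a 2.11-fold difference (1.08 ± 0.17, limma adjusted p = 0.00090). P2rx7 (18439), the channel that triggers inflammasome assembly at high ATP, was at 6.49, 6.72, 6.61 and 6.66 on Lin+ and at 6.10, 5.34, 5.85 and 5.49 on HSC-enriched arrays. It fell 1.90-fold without overlap (difference -0.93 ± 0.16, adjusted p = 0.0016). P2rx4 (18438), a channel that cells hold largely in lysosomes, was at 7.66, 7.75, 7.84 and 7.57 against 8.08, 7.67, 8.34 and 8.23. HSC-enriched replicate 2 lay within the Lin+ range, and the difference of 0.37 ± 0.15 (95% interval 0.04 to 0.71, adjusted p = 0.094) did not pass. It passed without that array (0.51, adjusted p = 0.012).

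**Figure D2:**
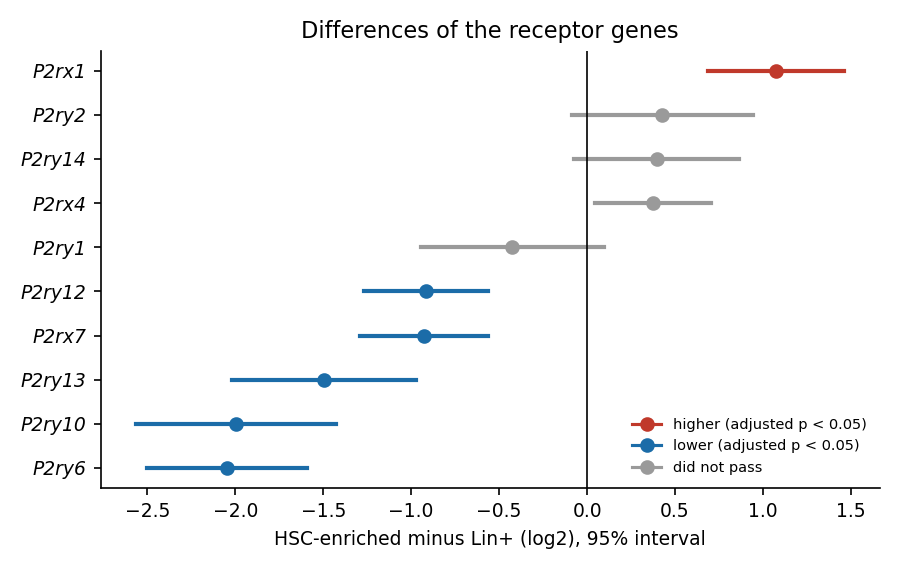
Differences between the groups (HSC-enriched minus Lin+, log2) for the 10 receptor genes, with 95% intervals from limma, 4 arrays per group, coloured by call. The differences run from -2.04 for P2ry6 to 1.08 for P2rx1. The interval of P2ry14 reaches from -0.07 to 0.86.

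The cell types in which these receptors are known were unequal between the groups. Of 7 monocyte and macrophage markers all 7 were lower in HSC-enriched cells, with mean levels of 4.78 to 5.23 against 7.87 to 8.40 on Lin+ arrays and 5 of the 7 at or under the guide. B cell markers were lower in 7 of 7 cases (4.81 to 6.53 against 9.83 to 10.50, 3 at or under the guide), and T and NK cell markers in 8 of 8 (4.5 to 4.98 against 7.83 to 8.13, 7 at or under the guide). These moved the same way as P2ry6, P2ry13, P2ry10 and P2rx7, and their part in those falls was not tested. Neutrophil markers were lower in 10 of 11 cases, at 6.58 to 9.36 against 11.64 to 11.85, with 1 at or under the guide. Erythroid markers (5 of 5 lower), eosinophil, basophil and mast cell markers (6 of 6) and dendritic cell markers (3 of 4) fell too, and of 5 endothelial markers 1 was higher and 1 lower. Without HSC-enriched replicates 3 and 4, where neutrophil markers were high, 5 receptor genes were lower and 2, P2rx1 and P2ry14, were higher. P2ry14 also passed without replicate 4 alone (0.60, limma adjusted p = 0.022), but not without replicate 3 alone, where the neutrophil mean was highest. The part of neutrophil markers in these calls was not tested.

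Platelet and megakaryocyte markers went the other way. Of 7 measured, 4 rose and 0 fell, with mean levels in HSC-enriched cells of 6.54 to 6.89 against 5.52 to 6.19 and 1 marker at or under the guide. Of the 3 members known as the nucleotide receptors of platelets, P2rx1 rose, P2ry12 fell and P2ry1 did not pass. On the 4 Lin+ arrays the platelet marker mean was 5.52, 5.89, 5.81 and 6.19 for replicates 1 to 4. P2ry1 ran in the same order on those arrays, whereas P2ry12 and P2rx1 did not. P2rx1 was lowest on replicate 4 (5.82), where the marker mean was highest. On HSC-enriched replicates 1 to 4 the marker mean was 6.66, 6.89, 6.60 and 6.54, and P2ry1 ran in another order, highest on replicate 1. The part of platelet markers in any of these values was not tested.

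Most of the receptor genes lie in groups on their chromosomes, which the choice of genes did not use. In the order of the RefSeq gene table, P2ry14, P2ry13 and P2ry12 lie close together on chromosome 3. P2rx7 and P2rx4 do so on chromosome 5, and P2ry6 and P2ry2 on chromosome 7. P2ry1, farther along chromosome 3, P2rx1 on chromosome 11 and P2ry10 on the X chromosome lie outside these groups. P2ry13 and P2ry12 both fell, while P2ry14 beside them, P2rx4 beside P2rx7, and P2ry2 beside P2ry6 did not pass. On chromosome 3 the next gene before P2ry14 is Gpr171, a receptor gene related to the P2Y class, which rose 1.64-fold from 9.45 ± 0.17 to 10.16 ± 0.13 (limma adjusted p = 0.0011). The 3 receptor genes lie within the span of Med12l, a gene for a Mediator complex protein on the opposite strand, which rose 6.61-fold from 5.12 ± 0.22 to 7.84 ± 0.20 (adjusted p = 6.1e-07). Med12l and the receptor genes overlap, and the sources used here do not say which bases the probes cover. Igsf10, an immunoglobulin superfamily gene beyond P2ry12, was 1.63-fold higher (adjusted p = 0.049) at 4.98 ± 0.51 against 4.28 ± 0.25, both under the guide. Its call was lost in 8 of the 15 alternatives that kept the gene (adjusted p = 0.056 to 0.122). Those were centring, the replicate block and the leaving out of Lin+ replicate 2, 3 or 4 or HSC-enriched replicate 1, 2 or 3.

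On chromosome 5, Ift81, an intraflagellar transport gene next to P2rx7, rose 3.39-fold from 4.00 ± 0.16 to 5.77 ± 0.49 (limma adjusted p = 0.00014), with the Lin+ mean under the guide. Camkk2, a calcium-dependent kinase gene on the far side of P2rx4, was at 6.93 ± 0.12 against 6.72 ± 0.18 and did not pass (adjusted p = 0.237). On chromosome 7, Fchsd2, which encodes an adaptor protein of endocytosis, rose 1.85-fold (adjusted p = 0.00078). Arhgef17 was at 5.12 ± 0.20 against 5.41 ± 0.06 and did not pass (adjusted p = 0.106).

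**Figure D3:**
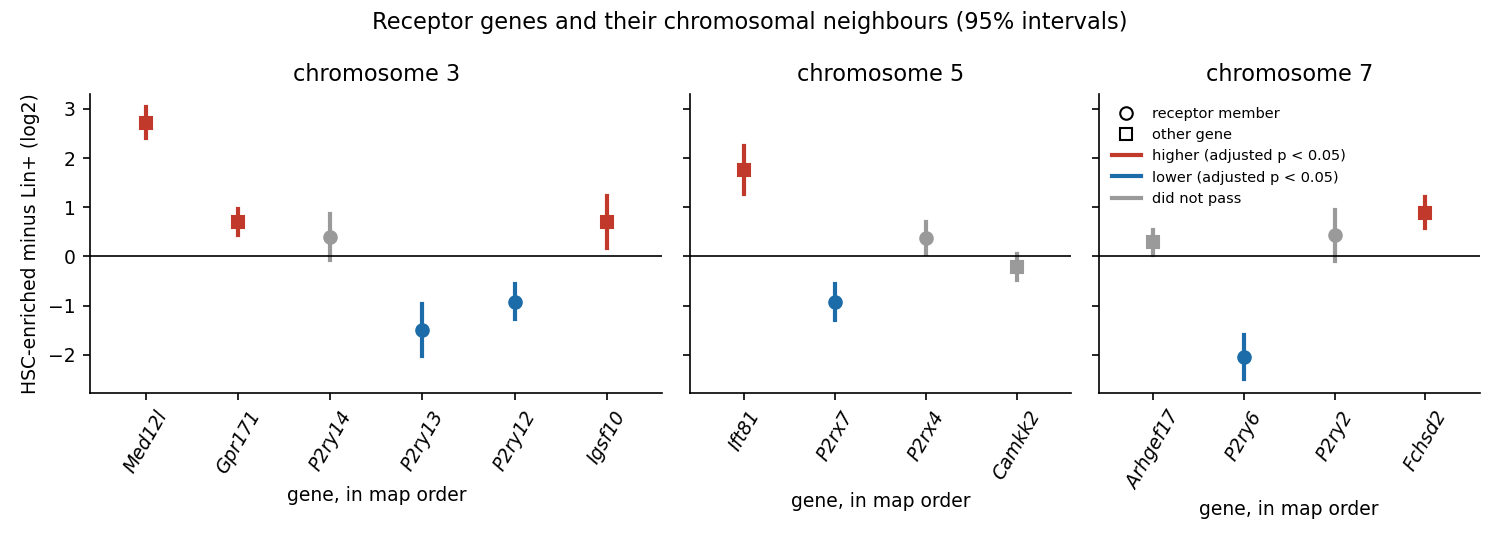
Differences (HSC-enriched minus Lin+, log2, with 95% intervals, 4 arrays per group) for the receptor genes (circles) and the genes beside them (squares), in map order on 3 chromosomes and coloured by call. Med12l spans the chromosome 3 group and is drawn first. P2ry13 and P2ry12 lie below 0 between Med12l, Gpr171 and Igsf10, which lie above it.

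To set neighbours against each other, the log2 ratio of a pair was taken within each array and its Lin+ mean subtracted, so that only the change between groups is read. The 5 pairs were chosen after the values were seen, so the ratios are a description without a test. The mean change of a ratio is the first gene's difference minus the second's, so it restates the differences given above. The ratio of P2ry14 over P2ry13 was 2.0, 2.50, 2.35 and 0.71 on HSC-enriched replicates 1 to 4, against -0.28 to 0.39 on Lin+ arrays. All HSC-enriched arrays lay higher, with replicate 4 nearest to the Lin+ arrays, and the mean change was 1.89, or 3.71-fold. For P2ry14 over P2ry12 the mean change was 1.31, with replicate 4 again nearest to the Lin+ arrays. P2rx4 gained 1.30 over P2rx7 and P2ry2 gained 2.47 over P2ry6, each with 4 of 4 HSC-enriched arrays above the Lin+ arrays. For P2ry13 over P2ry12 the groups overlapped, with a mean change of -0.58.

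**Figure D4:**
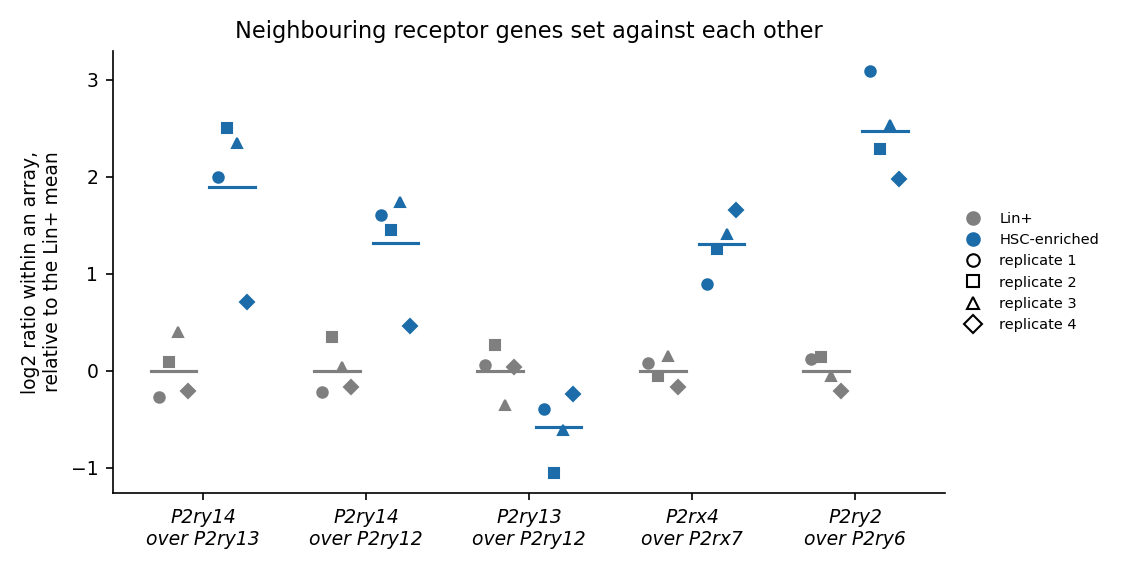
Log2 ratios of neighbouring receptor genes within each array, relative to the Lin+ mean (grey, Lin+; blue, HSC-enriched; symbols, replicates 1 to 4; bars, group means). The HSC-enriched arrays lie above the Lin+ arrays for every pair except P2ry13 over P2ry12. For both pairs with P2ry14, replicate 4 is the lowest HSC-enriched array, at 0.71 and 0.46.

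The sequence before the start of each gene is shown for the 3 chromosome 3 neighbours, of which P2ry13 and P2ry12 fell and P2ry14 did not pass, and for P2rx1, the gene that rose. RefSeq start sites (GRCm38.p6) were found for 9 of the 10 members, and the outermost start was taken (P2ry14 has 4, and the arrays do not tell which is used). Each line gives the 250 bases before the start, 5′ to 3′ on the gene's strand. The windows are chr3:59153493-59153742 (minus strand) for P2ry14, chr3:59210883-59211132 (minus) for P2ry13, chr3:59262986-59263235 (minus) for P2ry12 and chr11:72998895-72999144 (plus) for P2rx1. Capitals mark matches on either strand to an Ets, GATA or Runx motif or an E-box, spelled out after the sequences.
P2ry14: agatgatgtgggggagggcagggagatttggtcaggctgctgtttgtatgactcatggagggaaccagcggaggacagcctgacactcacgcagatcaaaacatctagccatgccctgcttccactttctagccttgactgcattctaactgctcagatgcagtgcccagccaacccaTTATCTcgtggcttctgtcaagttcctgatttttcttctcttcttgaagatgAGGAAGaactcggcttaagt
P2ry13: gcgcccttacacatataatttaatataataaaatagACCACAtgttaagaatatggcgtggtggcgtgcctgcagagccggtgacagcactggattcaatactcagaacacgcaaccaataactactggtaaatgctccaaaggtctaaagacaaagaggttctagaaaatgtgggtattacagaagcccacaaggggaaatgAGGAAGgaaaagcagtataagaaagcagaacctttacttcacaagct
P2ry12: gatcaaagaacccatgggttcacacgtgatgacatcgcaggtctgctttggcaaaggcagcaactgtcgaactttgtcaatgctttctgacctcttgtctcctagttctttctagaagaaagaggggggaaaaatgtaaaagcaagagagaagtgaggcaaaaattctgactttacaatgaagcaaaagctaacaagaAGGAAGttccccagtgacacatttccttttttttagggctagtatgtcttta
P2rx1: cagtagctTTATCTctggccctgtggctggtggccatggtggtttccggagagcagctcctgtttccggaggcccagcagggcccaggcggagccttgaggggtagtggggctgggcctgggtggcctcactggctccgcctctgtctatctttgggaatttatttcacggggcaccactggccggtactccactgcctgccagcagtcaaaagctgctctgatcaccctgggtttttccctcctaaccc

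The Ets motif was searched as AGGAAG. A match began 20, 47 and 52 bases before the start of P2ry14, P2ry13 and P2ry12, in each case on the gene's strand. Of 32851 RefSeq windows of this length, 29.5% hold such a match, so 3 in a row is a description only. P2ry10, on the X chromosome, also held an Ets match, 50 bases before its start on the other strand. The GATA motif was searched as AGATAA, and a match lay 72 bases before the P2ry14 start and 242 bases before that of P2rx1, on the other strand, and 106 bases before that of P2ry10, which fell, against 9.99% of all windows. For the Runx motif, TGTGGT, P2ry13 held a match 214 bases before its start on the other strand (14% of windows). The E-box, CAGCTG, was in none of the 4 printed windows, and 13% of all windows hold it. The window of P2ry10, not printed, held an E-box match 14 bases before its start. The matches in the 4 windows do not overlap. The windows, in the order printed, held 4, 5, 3 and 6 CpG dinucleotides, against a median of 6 over all windows. Those of P2ry1, P2ry2 and P2rx4, which like P2ry14 did not pass, held 20, 21 and 13. Those of P2ry10 and P2rx7, which fell, held 3 and 6, and no link to the calls was tested. GC content of the printed windows, in the same order, was 50%, 41.6%, 41.6% and 61.2%, against a median of 52.4%.

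The other genes of purinergic signalling, a list of 66 of which 59 were measured, showed no single direction: 11 rose, 16 fell and 32 did not pass (18.6% and 27.1% of those measured, against 15.5% and 12.4% of all genes). Their median was -0.10, and both group means lay at or under the guide for 14 of them. Of the 6 other P2 receptor genes 2 fell and 0 rose. P2rx3, a channel best known from sensory neurons, fell 2.74-fold from 6.45 ± 0.31 to 5.00 ± 0.39, a mean under the guide (limma adjusted p = 0.00043). The other was P2ry10b. P2rx5 (5.02 ± 0.09 against 4.86 ± 0.08) and P2rx6 (4.42 ± 0.17 against 4.62 ± 0.23) did not pass, with means under the guide. The adenosine receptor gene measured, Adora3, fell 1.52-fold (adjusted p = 0.0042) with both means, 4.85 ± 0.22 and 4.25 ± 0.09, under the guide. The other 3 adenosine receptor genes were not analysed here.

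Of 7 genes for enzymes that break down nucleotides outside the cell, 2 fell and 1 rose. The shares were 28.6% and 14.3%, against 12.4% and 15.5% of all genes. Entpd1 (CD39), which removes phosphates from ATP and ADP, fell 3.08-fold, from 8.38 ± 0.24 to 6.76 ± 0.30 (limma adjusted p = 5.0e-05). Nt5e (CD73), which makes adenosine from AMP, fell 4.41-fold, from 6.74 ± 0.49 to 4.6 ± 0.31 (adjusted p = 7.5e-05), to a level under the guide. Entpd2 was 1.37-fold higher (adjusted p = 0.041), but the call was lost in 9 of 17 alternatives (adjusted p = 0.050 to 0.112), among them the leaving out of any single array but Lin+ replicate 1. The remaining 4 did not pass, among them Entpd3 (difference -0.01) and Alpl (-0.23).

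Adenosine handling was lower in 5 of 11 genes and higher in 1 (45.5% and 9.1%, against 12.4% and 15.5% of all genes). Pnp2, a purine nucleoside phosphorylase gene whose close copy Pnp did not pass (-0.32), fell 5.06-fold, from 7.27 ± 0.70 to 4.93 ± 0.62, a mean under the guide (limma adjusted p = 0.00076). Dpp4, a surface peptidase gene (CD26), fell 2.38-fold (adjusted p = 0.0011). Slc29a2, an equilibrative nucleoside transporter gene, was 1.46-fold higher (adjusted p = 0.031), a call lost in 9 of 17 alternatives (adjusted p = 0.058 to 0.217), among them the leaving out of any single array but Lin+ replicate 1 and HSC-enriched replicate 1. Its relative Slc29a1 (-0.01) and the adenosine kinase gene Adk (0.35) did not pass. Adk passed without HSC-enriched replicate 4 (0.58, adjusted p = 0.028).

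Genes of nucleotide release rose in 2 of 7 cases and fell in 1 (28.6% and 14.3%, against 15.5% and 12.4% of all genes). Gja1, the connexin 43 gene, rose 2.83-fold from 5.02 ± 0.34, a mean under the guide, to 6.52 ± 0.31 (limma adjusted p = 0.00021). Lrrc8a, a subunit gene of the volume-regulated anion channel, rose 1.72-fold (adjusted p = 0.00067). Slc17a9, the vesicular nucleotide transporter gene, was 1.35-fold lower (adjusted p = 0.037), and its call was lost in 10 of 17 alternatives (adjusted p = 0.052 to 0.276), among them the leaving out of any single array but Lin+ replicate 1 and HSC-enriched replicate 1. The pannexin genes Panx1 (-0.04) and Panx2 (-0.05) did not pass.

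Genes that make, move or break down UDP-sugars, the ligands of P2ry14, had a median of 0.15. They rose in 5 of 12 cases and fell in 2 (41.7% and 16.7%, against 15.5% and 12.4% of all genes). Of these 12 genes, 0 had a group mean at or under the guide, whereas 10341 of the 24011 genes had both means there. The all-gene shares are therefore a low comparison for this list. Ugp2, the enzyme that makes UDP-glucose, fell 1.74-fold from 9.0 ± 0.08 to 8.20 ± 0.07 (limma adjusted p = 0.00011), and Ugdh, which converts UDP-glucose to UDP-glucuronate, fell 1.62-fold (adjusted p = 0.016). Slc35d1, a UDP-sugar transporter gene of the endoplasmic reticulum, rose 1.84-fold (adjusted p = 0.0078), and Galt, which exchanges sugars between UDP-glucose and galactose-1-phosphate, rose 1.75-fold (adjusted p = 0.00075). Entpd5 (0.13) and Slc35a3 (-0.02) did not pass.

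Of 8 genes for the G protein alpha subunits that P2Y receptors use or that belong to the same classes, 1 rose and 1 fell. At 12.5% each, these counts are close to the 15.5% and 12.4% of all genes. Gnaz rose 2.37-fold, from 4.79 ± 0.14, under the guide, to 6.04 ± 0.24 (limma adjusted p = 6.3e-05). Gnai2, the main Gi subunit gene of blood cells, fell 1.74-fold, from 10.48 ± 0.12 to 9.68 ± 0.09 (adjusted p = 0.00020). Gnai3 (-0.06) and Gnaq (0.17) did not pass. In the list of the P2X7-driven inflammasome, 2 of 7 fell and 1 rose (28.6% and 14.3%, against 12.4% and 15.5% of all genes). Nlrp3, its sensor, fell 9.63-fold from 7.59 ± 0.44 to 4.33 ± 0.27 (adjusted p = 2.3e-06), with all 4 HSC-enriched arrays under the guide, so that the fold rests on a level near background. The cytokine gene Il1b fell 29.5-fold (adjusted p = 3.8e-06), from 10.55 ± 0.51 to 5.66 ± 0.72, whereas Il18 rose 2.95-fold (adjusted p = 0.0031). Pycard (-0.30) and Nek7 (-0.26) did not pass.

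**Figure D5:**
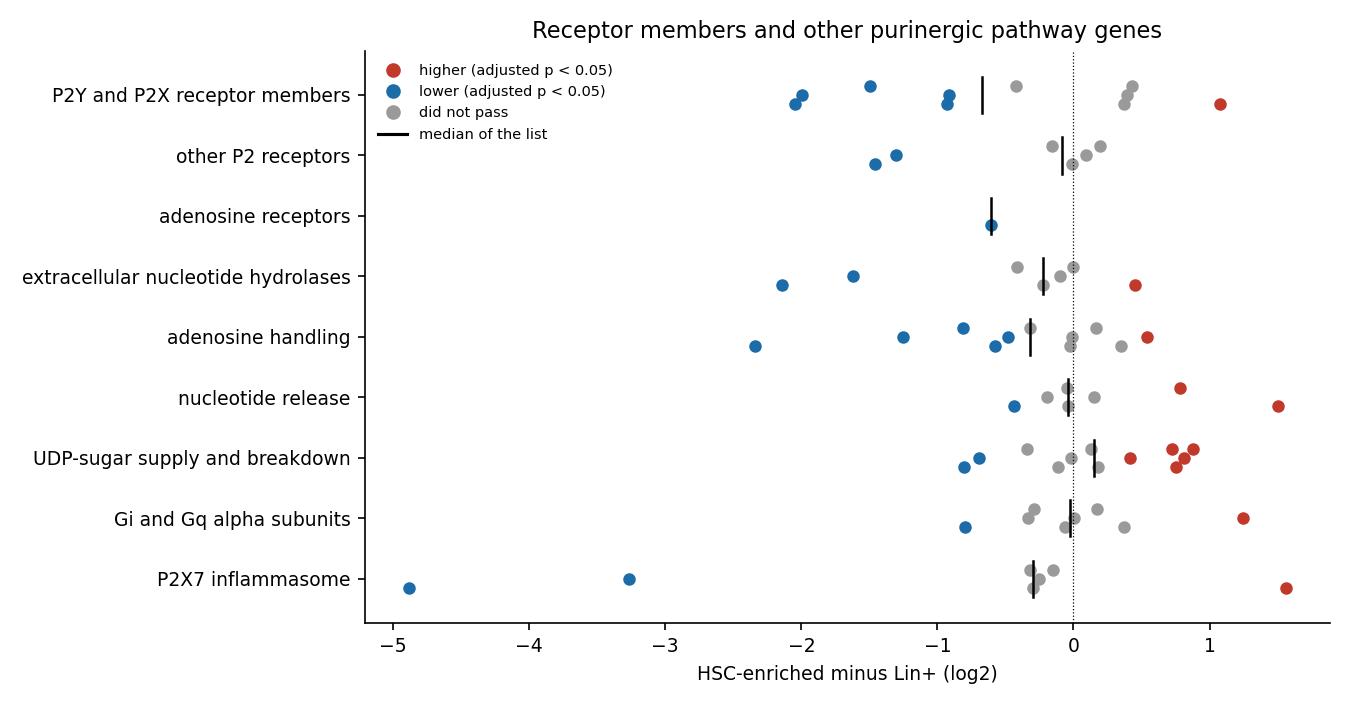
Differences (HSC-enriched minus Lin+, log2) of the 10 receptor genes and the 59 other purinergic pathway genes measured, by list, coloured by call, with black bars at each list's median. The receptor list has its median at -0.67, the UDP-sugar list at 0.15 and the inflammasome list at -0.30.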

How the data were processed

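Sorted cells' RNA was amplified (Ovation Pico), biotin-labelled and hybridised to MouseGene arrays from Affymetrix, of which the protocols in the labels name 2 versions (1.0st and 2.0st) without saying which sample was on which, so whether the version differed between samples is unknown. The authors deposited log2 values for 24973 probe sets, each under a gene number. The submitters' processing notes list RMA and Partek and give no version. The sources used here state neither genome build nor probe set definition, and the values come without detection calls.

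Of the probe sets 24015 had 1 gene symbol, 0 had several and 958 were unnamed. For 23922 of the named probe sets the Entrez gene ID was found in a RefSeq table (GRCm38.p6), whose symbol was then used. Of probe sets sharing a symbol the brightest was kept, leaving 24011 genes. Differences are HSC-enriched minus Lin+, fitted with limma 3.58.1 (R 4.3.3, lmFit and eBayes, 2 groups, no covariate or filter), with Benjamini-Hochberg adjustment over all genes. Standard errors and 95% intervals are limma's. Ratios of neighbouring genes are given without a test. In data simulated for these 24011 genes, with 200 changed, the fit recovered 18.0% of genes changed 1.41-fold, 78.0% at 2-fold and 97.0% at 4-fold. Far more genes differ in the real data, where 27.8% were called, and the adjustment is less strict there. The simulated rates therefore do not give the power of the real comparison.

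The members, lists and alternatives were chosen with earlier results of these data known. Named genes are all members, the gate antigens, up to 2 risers, 2 fallers and 2 not passing with the highest level in each pathway list, chromosomal neighbours and the 5 genes most like P2ry14. Neighbours are the named genes between, or next to, members within 500 kb of each other, and Med12l was added after its values were seen. The 17 alternatives were centring, quantile normalization, filters at the 40th percentile or median on at least 4 arrays, the mean of probe sets, array weights, a variance trend with robust fitting, a replicate block, each array left out, and HSC-enriched replicates 3 and 4 left out together. No batch or date is given.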

Additional observations from a re-analysis of the deposited data

Results flagged for a closer look

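Some values lay far from the other 3 arrays of their group, past Dixon's 95% critical value for the gap relative to the group's range. Of 154 groups of 4 looked at, 10 were so marked, and chance marks about 1 in 20. No receptor member was among them. In HSC-enriched cells they were P2ry10b at 4.89 and Adora3 at 4.39 on replicate 4, Ift81 at 6.50 on replicate 1, Slamf1 at 7.39 on replicate 2, and Il1b at 6.75 and the B cell marker mean at 6.53 on replicate 3. In Lin+ cells they were Nae1 at 6.94, Slc35d1 at 5.70 and the monocyte and macrophage marker mean at 7.87 on replicate 1, and P2rx6 at 4.16 on replicate 2.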

How the results depend on the processing

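P2ry6, P2ry10, P2ry12, P2ry13, P2rx1 and P2rx7 kept direction and call in all 17 alternatives. Of 170 member values under the alternatives, 0 changed sign, 0 lost a call and 4 gained one: P2ry14 in 2, P2ry1 and P2rx4 in 1 each. The count of members higher was therefore 1 to 2 with single arrays left out and 2 without HSC-enriched replicates 3 and 4 together, and the count lower was 5 to 6 with single arrays left out. The cause was not tested. Over all genes the counts ran from 3152 to 4044 higher and 2392 to 3048 lower, and for the pathway genes from 8 to 12 and 15 to 17. No scaling moved the median of all genes by over 0.1.

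Over genes, deviations from the group means correlated at -0.15, 0.06, 0.03 and -0.10 for same-numbered arrays. For differently numbered arrays they correlated at -0.11 to 0.17. Many genes lie near background, where deviations are mostly noise, so these values do not settle whether same-numbered samples were paired. With the replicate block, 3379 genes were higher and 2743 lower, and 1 and 5 members, the same calls as without it. Over named genes, 36 of 1028 values lost a call, 12 gained one and 24 changed sign without passing in either fit. With quantile normalization Gnai3 was at 0.021 and Slc29a1 at 0.024, and with array weights Entpd3 at 0.039 and Slc35a3 at 0.0086. Without HSC-enriched replicates 3 and 4, Entpd3 was at 0.034, Panx1 at 0.17, Slc29a1 at 0.073 and Slc35a3 at 0.16. With single arrays left out, values ran from -0.079 to 0.079 for Entpd3, -0.13 to 0.0081 for Gnai3, -0.17 to 0.051 for Panx1, -0.14 to 0.048 for Panx2, -0.098 to 0.046 for Slc29a1 and -0.13 to 0.17 for Slc35a3. Filters on low values left out Adora3, Alpl, Entpd3, Igsf10, P2rx5 and P2rx6 in at least 1 of 2 settings. The pair ratios kept their direction with any single array left out, at 1.69 to 2.28 for P2ry14 over P2ry13. HSC-enriched levels of P2ry6, P2ry10 and P2ry12 near the guide limit how well their folds are known.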
